A study of Homo sapiens with 18 samples.

Results

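The genes described here encode 9 surface antigens of B cells that antibodies, antibody-drug conjugates or engineered T cells are directed at: MS4A1, CD22, CD37, CD38, CD52, CD24, CD81, TNFRSF13C and TNFRSF17. They were taken by symbol, and all 9 were among the 23686 gene symbols of the deposited tables. Their RNA was followed in OCI-Ly1 and TMD8, 2 lines derived from diffuse large B-cell lymphoma, in 18 libraries. The vehicle was 0.01% DMSO, and JIB-04 was given at 150 nM or at 500 nM, which makes 6 groups of 3 libraries, and no group carried an introduced genetic change according to the labels. JIB-04 is a small molecule that inhibits Jumonji histone demethylases, and the series places it in a study of heterochromatin in lymphoma. OCI-Ly1 was kept in IMDM and TMD8 in RPMI medium, so line and medium cannot be told apart. The labels call the libraries technical triplicates, name no separate cultures and give no treatment time, so p-values measure only the spread between these libraries. Transcripts were measured, not protein at the cell surface.

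These antigens differ in structure and in role. MS4A1 encodes CD20, a membrane-spanning protein of mature B cells and the target of rituximab, and CD22 is an inhibitory Siglec of the B-cell receptor that the conjugate inotuzumab ozogamicin binds. CD37 and CD81 are tetraspanins, CD52 and CD24 are short peptides held in the membrane by a glycosylphosphatidylinositol (GPI) anchor, CD38 is an ectoenzyme, and TNFRSF13C (BAFF-R) and TNFRSF17 (BCMA) are receptors for the survival factors BAFF and APRIL. Mature B cells carry CD20, CD22, CD37 and BAFF-R, whereas BCMA and high CD38 mark their development into plasma cells.

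The promoters of CD52 and CD38 are shown because both antigens were well expressed in OCI-Ly1 and close to the detection limit in TMD8. RefSeq windows (GRCh38.p14) were at hand for 4 of the 9 members, namely CD52, CD38, CD24 and CD22. Each sequence is the 250 bases before the annotated start on the plus strand, at chr1:26317708-26317957 for CD52 and chr4:15778078-15778327 for CD38, with the motif match in capitals.
CD52: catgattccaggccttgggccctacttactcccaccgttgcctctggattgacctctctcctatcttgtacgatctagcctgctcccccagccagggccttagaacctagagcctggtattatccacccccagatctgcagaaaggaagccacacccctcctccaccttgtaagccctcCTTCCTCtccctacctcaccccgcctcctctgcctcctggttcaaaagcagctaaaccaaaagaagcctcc
CD38: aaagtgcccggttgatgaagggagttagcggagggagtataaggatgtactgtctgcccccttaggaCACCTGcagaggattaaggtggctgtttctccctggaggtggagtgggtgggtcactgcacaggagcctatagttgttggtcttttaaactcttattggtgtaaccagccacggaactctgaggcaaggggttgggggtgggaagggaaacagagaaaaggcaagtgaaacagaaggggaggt
The capitals in CD52 mark GAGGAAG, the core of an ETS-type element bound by PU.1, read on the opposite strand. The leftmost capital as printed is at position -71 from the start. In CD38 the capitals mark CAGGTG, the E-box of E proteins, also on the opposite strand, with the leftmost capital at position -183. Over both strands, 11.3% of the 34943 RefSeq windows of this length held GAGGAAG and 17.5% held CAGGTG. The octamer ATGCAAAT (1.63% of windows), TATAAA (10.8%), TTGCATCA (0.776%) and the NF-kB element (1.73%) had no match in these CD52 and CD38 windows. GC content was 56.4% for CD52 and 52.4% for CD38, beside a median of 58% over all windows.

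The OCI-Ly1 libraries held 17579732 to 32651115 estimated counts each and the TMD8 libraries 9550092 to 20509500. Both lines carried the B-cell markers: all 9 genes of the marker list were at 1 TPM (transcript abundance scaled for length and depth) or more in OCI-Ly1 with DMSO and 8 of 9 in TMD8, with summed levels of 1360 to 1450 TPM and 1390 to 1710 TPM. The 8 myeloid markers summed to 1.08 to 1.53 TPM in OCI-Ly1 and 0.503 to 0.733 TPM in TMD8 with DMSO, with S100A8 and S100A9 at 0. The 10 T-cell and NK-cell markers summed to 35.1 to 40.0 TPM with DMSO and 17.6 to 20.7 TPM at 500 nM in OCI-Ly1, where 3 of 10 reached 1 TPM, and the part of this decline in the members' changes was not tested. In TMD8 they summed to 5.73 to 5.88 TPM with DMSO and 5.23 to 5.98 TPM at 500 nM, with CD3E at 0. Levels within a gene are given as TMM-normalised CPM (counts scaled for depth), and levels are compared between genes only in TPM, which accounts for length.

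The lines differed in untreated antigen profile. In OCI-Ly1 with DMSO, CD52 had the highest level of the 9 at 648 ± 47.8 TPM (mean ± SD, n = 3), followed by CD24 at 304 ± 21.3 TPM. MS4A1 at 187 ± 14.1 TPM and CD81 at 186 ± 16.6 TPM came next with overlapping libraries. TNFRSF17 stood at 70.3 ± 8.19 TPM and CD22 at 38.4 ± 1.02 TPM, ahead of CD37 at 35.4 ± 1.84 TPM and CD38 at 32.6 ± 2.08 TPM, whose libraries overlapped. TNFRSF13C was lowest at 4.80 ± 0.836 TPM.

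TMD8 gave another order. CD37 led at 569 ± 78.5 TPM, ahead of MS4A1 at 313 ± 52.1 TPM, CD24 at 95.4 ± 12.8 TPM, CD81 at 63.7 ± 4.91 TPM, CD22 at 46.3 ± 5.87 TPM and TNFRSF13C at 33.3 ± 2.78 TPM. Below them were TNFRSF17 at 7.10 ± 1.73 TPM, CD52 at 1.77 ± 0.149 TPM and CD38 at 0.267 ± 0.0844 TPM. No neighbours in this order overlapped between libraries. CD38 rested on 6 to 13 estimated counts a library here and CD52 on 14 to 18.

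**Figure D1:**
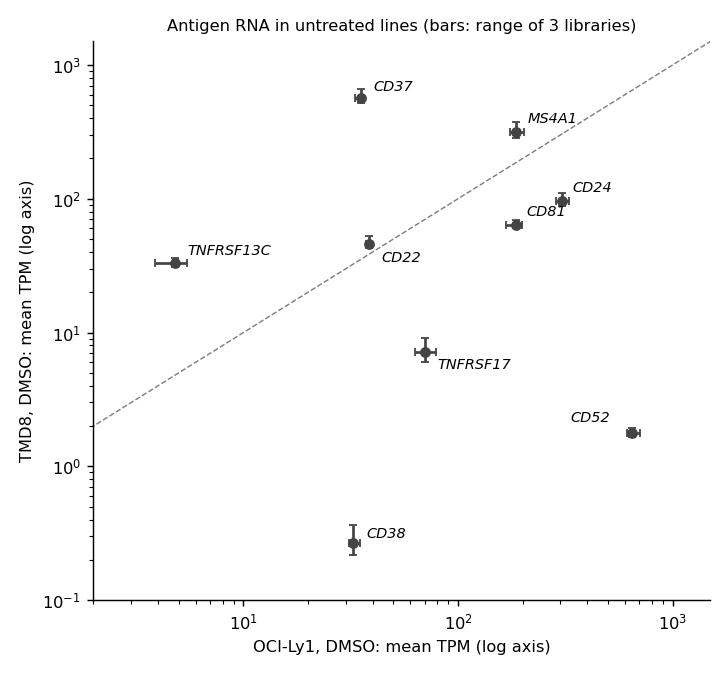
Mean deposited TPM of the 9 antigens with DMSO in OCI-Ly1 (horizontal) and TMD8 (vertical), both on log axes; bars span the 3 libraries and the dashed line marks equal levels. CD52 led in OCI-Ly1 at 648 TPM and lay at 1.77 TPM in TMD8, while CD37 led in TMD8 at 569 TPM and lay at 35.4 TPM in OCI-Ly1.

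Every member differed between the untreated lines in edgeR's quasi-likelihood test with Benjamini-Hochberg adjustment, 5 higher and 4 lower in OCI-Ly1, in a comparison where 76.7% of 16604 genes were called (37.8% higher, 39% lower). With so large a background, the number of calls says little of the antigens, and the sizes carry the description. CD52 was 188-fold higher in OCI-Ly1 (log2 difference 7.55, SE 0.11, adjusted p = 1.1e-28), CD38 60.7-fold higher (5.92, SE 0.15, adjusted p = 3.3e-23) and TNFRSF17 5.14-fold higher (2.36, SE 0.10, adjusted p = 5.9e-18). CD37 was 31.2-fold lower in OCI-Ly1 (-4.97, SE 0.08, adjusted p = 5.2e-27) and TNFRSF13C 13.3-fold lower (-3.73, SE 0.11, adjusted p = 6.2e-22). These sizes depend on the processing. Over the alternatives the log2 difference spanned 7.15 to 8.44 for CD52, 4 to 6.5 for CD38 and 2.27 to 3.31 for TNFRSF17. It spanned -5 to -3.96 for CD37 and -3.85 to -2.57 for TNFRSF13C. The sizes of CD52 and CD38 also rest on the few TMD8 counts given above. MS4A1 was lower by a log2 difference of -1.72 and CD22 by -1.26, and CD24 and CD81 were higher by 0.71 and 0.58. On log2(TPM + 1) the directions held but these sizes were -0.73 for MS4A1, -0.26 for CD22, 1.67 for CD24 and 1.53 for CD81, on a scale where the median of all genes shifted by 0.638 and the share of called genes higher in OCI-Ly1 went from 49.2% to 79.5%. In bulk RNA, fewer cells with a transcript and less of it per cell cannot be told apart.

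The deposited TPM scale needs care across doses and lines. The 3 loci with the most TPM, mostly small non-coding RNAs such as MIR3687 and MIR3648 in TMD8 and RPPH1 and RMRP in OCI-Ly1, held 37.5% to 42.8% of all TPM in TMD8 with DMSO and 45.4% to 51% at 500 nM. In OCI-Ly1 the 3 highest loci held 13.7% to 14% with DMSO and 18.5% to 20.3% at 500 nM. Relative to edgeR, the median response to 500 nM over the whole table shifted by -0.26 in TMD8 and by 0.105 in OCI-Ly1 on log2(TPM + 1). The share of the highest loci rose in both lines while these shifts had opposite signs. The part of those loci in the shifts was not tested. Among called genes at 500 nM, the share that was higher was 51.6% in OCI-Ly1 (71.9% on log2(TPM + 1), 32.3% after centring each library on its median, 64% with library size alone) and 49.3% in TMD8 (18.8%, 48.3% and 59.4%).

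At 150 nM, 1 of 9 members was called in OCI-Ly1 (TNFRSF17, higher), where 0.889% of 15638 genes were called, 0.748% higher and 0.141% lower. In TMD8, 4 of 9 were called at that dose, 2 in each direction, against 44.2% of 15363 genes (19.2% higher, 25% lower); with library size alone 5 were higher and 2 lower, and on log2(TPM + 1) 0 and 2. At 500 nM, 8 of 9 were called in OCI-Ly1, 1 higher and 7 lower, where 53.6% of all genes were called, 27.7% higher and 25.9% lower; lower calls thus made up a larger share of the members than of all genes, a difference that was not tested. In TMD8 all 9 were called at 500 nM, 6 higher and 3 lower, where 60.7% were called, 29.9% higher and 30.7% lower; on log2(TPM + 1) 3 were called there, all lower. That count includes CD38, which passed the low-count filter in TMD8 only through its 500 nM libraries, and CD52, at 14 to 21 estimated counts a library; 9 of 14 alternatives did not call each of them. The median log2 fold change of the members at 500 nM was -0.34 in OCI-Ly1 (-0.0033 over all tested genes) and, CD38 and CD52 included, 0.42 in TMD8 (0.0414 over all). With CD38 and CD52 set aside, the TMD8 values ran from -0.49 for MS4A1 to 0.66 for TNFRSF17, with CD81 (0.18) in the middle. Both doses of a line share its 3 DMSO libraries. Changes at 150 nM that were not called included -0.14 for CD37, -0.06 for CD38, -0.05 for CD81 and -0.36 for TNFRSF13C in OCI-Ly1, and 0.11 for CD81 in TMD8 (edgeR adjusted p = 0.051).

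**Figure D2:**
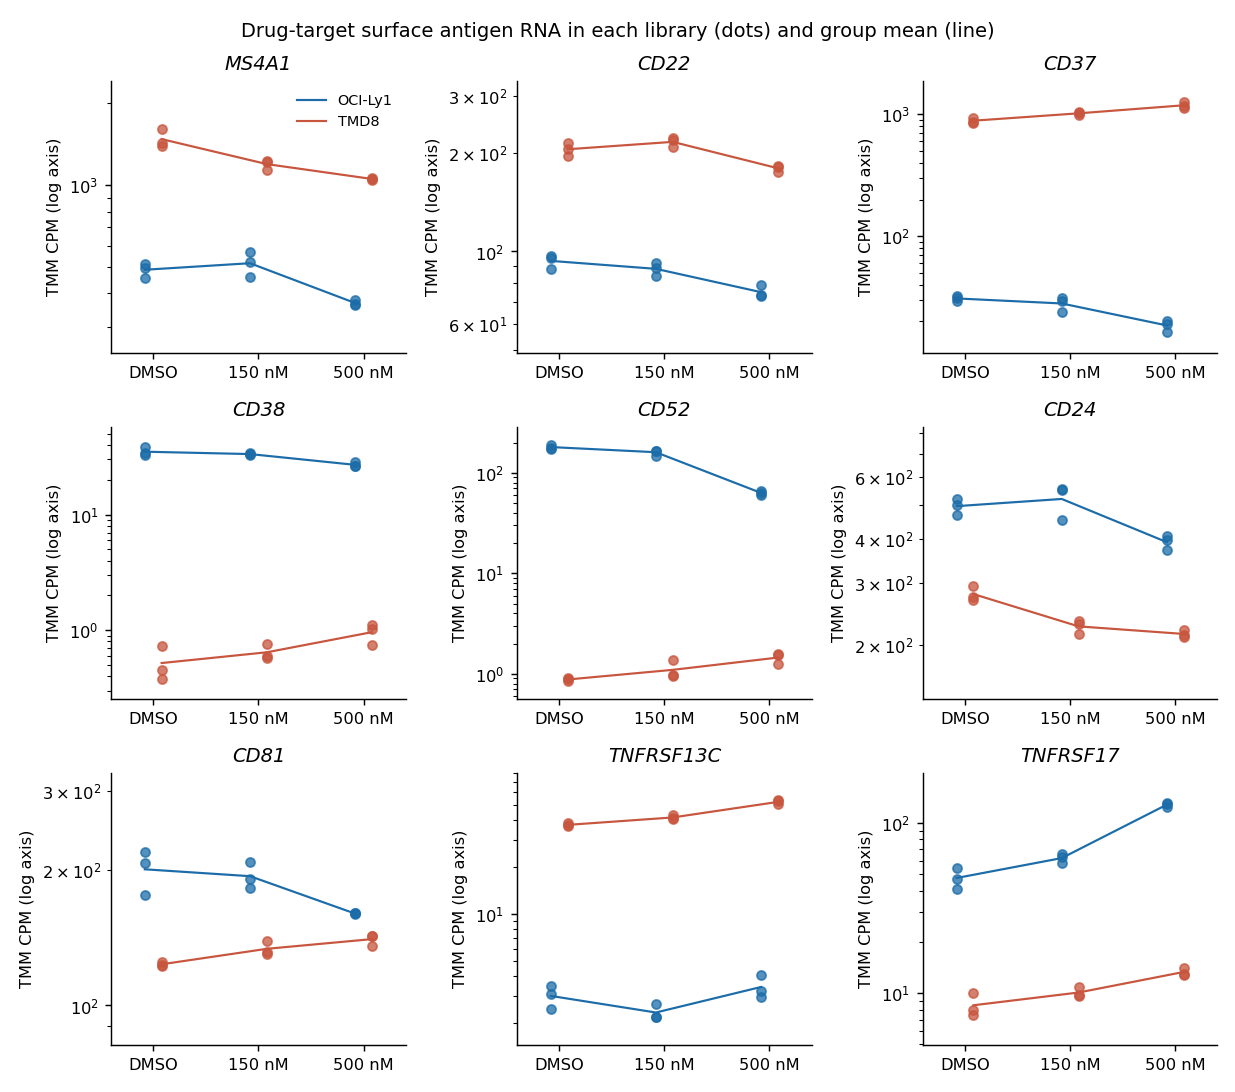
TMM CPM of each antigen in each library by JIB-04 dose (0, 150 and 500 nM) for OCI-Ly1 and TMD8, on a log scale; points are libraries and lines join group means. CD52 in OCI-Ly1 lay at 60.4 to 65.2 CPM at 500 nM, below all DMSO libraries (174 to 191), and TNFRSF17 lay above them (124 to 131 against 41.2 to 54.3).

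CD20, the product of MS4A1, is the antigen most widely used in antibody therapy of this lymphoma. Its transcript fell at 500 nM in both lines. In OCI-Ly1, MS4A1 was at 458, 496 and 513 CPM with DMSO, 460, 523 and 567 CPM at 150 nM and 361, 366 and 379 CPM at 500 nM. The 500 nM libraries lay below both other groups, which overlapped. The log2 fold change against DMSO was 0.08 at 150 nM (SE 0.06, edgeR adjusted p = 0.72) and -0.41 at 500 nM (SE 0.06, edgeR adjusted p = 3.6e-05).

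In TMD8 the MS4A1 libraries were at 1610, 1390 and 1431 CPM with DMSO, 1219, 1230 and 1137 CPM at 150 nM and 1052, 1064 and 1046 CPM at 500 nM. The 3 groups did not overlap, and each higher dose lay lower. MS4A1 fell by 0.30 on the log2 scale at 150 nM (SE 0.06, edgeR adjusted p = 0.00033) and by 0.49 at 500 nM (SE 0.06, edgeR adjusted p = 9.3e-07). The 500 nM value was -0.88 in TMD8 and -0.28 in OCI-Ly1 on log2(TPM + 1). The step from 150 to 500 nM was -0.18 (edgeR adjusted p = 0.024), a call lost without 150 nM replicate 1 or 2 or any single 500 nM library (adjusted p = 0.067 to 0.11).

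CD22, which dampens B-cell receptor signals, also fell at 500 nM in both lines. Its OCI-Ly1 libraries were at 95.2, 96.9 and 88.6 CPM with DMSO, 92.3, 83.9 and 89.2 CPM at 150 nM and 73.1, 78.7 and 73.3 CPM at 500 nM. In TMD8 they were at 215, 196 and 206 CPM, then 222, 219 and 209 CPM, then 183, 182 and 175 CPM. In both lines the 500 nM libraries lay below the other 6 and the 150 nM libraries overlapped DMSO. The log2 fold change at 500 nM was -0.32 in OCI-Ly1 (SE 0.06, edgeR adjusted p = 0.00023), against -0.19 in TMD8 (SE 0.05, edgeR adjusted p = 0.0023). The order of the lines turned on log2(TPM + 1), with -0.18 in OCI-Ly1 and -0.56 in TMD8. At 150 nM it was -0.08 in OCI-Ly1 (edgeR adjusted p = 0.7) and 0.08 in TMD8 (edgeR adjusted p = 0.22).

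The tetraspanin CD37 moved in opposite directions in the lines. Its OCI-Ly1 libraries were at 32.0, 29.6 and 30.9 CPM with DMSO, 31.1, 23.9 and 29.2 CPM at 150 nM and 19.96, 19.17 and 16.4 CPM at 500 nM. In TMD8 they were at 941, 846 and 873 CPM with DMSO, 990.0, 1023 and 1045 CPM at 150 nM and 1129, 1180 and 1251 CPM at 500 nM. The 500 nM group lay below all other libraries in OCI-Ly1 and above all others in TMD8, where the 150 nM group also lay above DMSO.

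In OCI-Ly1, CD37 fell by 0.74 on the log2 scale at 500 nM (SE 0.10, edgeR adjusted p = 5.5e-06). In TMD8 it rose by 0.20 at 150 nM (SE 0.05, edgeR adjusted p = 0.0062) and by 0.42 at 500 nM (SE 0.05, edgeR adjusted p = 2.9e-06). Both were 0.05 on log2(TPM + 1) (limma adjusted p = 0.8 and 0.78), and after centring the 150 nM value was 0.14 (adjusted p = 0.1). The annotated CD37 locus on chromosome 19 overlaps SLC6A16 and TEAD2, and the counting of strand is not stated. SLC6A16 went from 4.37 ± 0.586 to 2.09 ± 0.214 CPM in OCI-Ly1 (log2 fold change -1.06, edgeR adjusted p = 0.00014). TMD8 had 4.21 ± 0.27 CPM of it with DMSO and 7.98 ± 0.855 CPM at 500 nM (0.93, edgeR adjusted p = 2e-05; n = 3), the same directions as CD37. How the reads of these overlapping genes were divided was not tested.

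CD81, a tetraspanin that organises membrane proteins of B cells, fell in OCI-Ly1 and was slightly higher in TMD8. OCI-Ly1 libraries were at 207, 219 and 176 CPM with DMSO, 208, 191 and 182 CPM at 150 nM and 160.5, 159.3 and 160.1 CPM at 500 nM. The TMD8 libraries were at 123, 123 and 125 CPM, then 131.8, 138.9 and 130.2 CPM, then 136, 143 and 143 CPM. At 500 nM all OCI-Ly1 libraries lay below DMSO and all TMD8 libraries above it. The 500 nM response of CD81 was -0.33 on the log2 scale in OCI-Ly1 (SE 0.07, edgeR adjusted p = 0.00078). The TMD8 response was 0.18 (SE 0.05, edgeR adjusted p = 0.002), and the TMD8 value was -0.19 on log2(TPM + 1) (limma adjusted p = 0.11) and 0.07 after centring (limma adjusted p = 0.2).

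Of the GPI-anchored antigens, CD52, the alemtuzumab target, fell strongly in OCI-Ly1. It was at 176, 174 and 191 CPM with DMSO, 166, 149 and 166 CPM at 150 nM and 60.4, 63.7 and 65.2 CPM at 500 nM. The 150 nM libraries lay just below DMSO and the 500 nM libraries far below both. CD52 fell by 1.52 on the log2 scale at 500 nM (2.86-fold, SE 0.06, edgeR adjusted p = 9.3e-13), a size that 3.99% of tested genes reached. At 150 nM the change was -0.17 (SE 0.06, edgeR adjusted p = 0.28), and from 150 to 500 nM it was -1.35 (edgeR adjusted p = 9.3e-12).

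On the TPM scale CD52 went from 648 ± 47.8 to 249 ± 16.2 in OCI-Ly1 (n = 3), and the 500 nM libraries of CD52 and of CD24 (265 ± 20.3 TPM) overlapped. UBXN11 overlaps CD52 on chromosome 1 and rose in OCI-Ly1 from 26.7 ± 3.22 to 40.7 ± 1.8 CPM (log2 fold change 0.60, edgeR adjusted p = 2.5e-05), opposite to CD52. The TMD8 libraries held CD52 at 0.889, 0.841 and 0.906 CPM with DMSO, 1.38, 0.967 and 0.942 CPM at 150 nM and 1.25, 1.57 and 1.53 CPM at 500 nM. These values rest on 14 to 21 estimated counts a library; the 500 nM group lay above DMSO and overlapped the 150 nM group. The fitted change at 500 nM was 0.71 (SE 0.27, edgeR adjusted p = 0.032), which 9 of 14 alternatives did not call (adjusted p = 0.14 with DESeq2), including fits without any single DMSO library or without 500 nM replicate 2 or 3 (adjusted p = 0.053 to 0.11).

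CD24, the ligand of Siglec-10, fell at 500 nM in both lines. Its OCI-Ly1 libraries were at 468.8, 500.1 and 519.8 CPM with DMSO, 454, 557 and 550 CPM at 150 nM and 372, 396 and 407 CPM at 500 nM. In TMD8 they were at 294, 268 and 274 CPM, then 233, 229 and 214 CPM, then 210, 221 and 213 CPM. The 500 nM libraries lay below DMSO in both lines, and in TMD8 both doses did and overlapped each other. The log2 fold change at 500 nM was -0.34 in OCI-Ly1 (SE 0.07, edgeR adjusted p = 0.00034; on log2(TPM + 1) -0.20, limma adjusted p = 0.11), against -0.38 in TMD8 (SE 0.05, edgeR adjusted p = 3.8e-06; on log2(TPM + 1) -0.74). At 150 nM it was 0.07 in OCI-Ly1 (edgeR adjusted p = 0.78) and -0.31 in TMD8 (edgeR adjusted p = 8.2e-05). RefSeq lists 5 CD24 pseudogenes, none among the tables' symbols. Whether reads of such copies were counted as CD24 was not tested, which leaves these levels less certain.

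CD38, the ectoenzyme bound by daratumumab, fell in OCI-Ly1. The libraries there were at 34.3, 38.3 and 32.5 CPM with DMSO, 32.6, 33.4 and 34.2 CPM at 150 nM and 26.2, 28.5 and 26.2 CPM at 500 nM. The 500 nM group lay below the other groups, which overlapped, and CD38 fell by 0.38 on the log2 scale (SE 0.07, edgeR adjusted p = 0.00039). The TMD8 libraries held CD38 at 0.381, 0.729 and 0.453 CPM with DMSO, 0.580, 0.760 and 0.595 CPM at 150 nM and 1.12, 0.748 and 1.02 CPM at 500 nM. It passed the low-count filter there only through the 500 nM group, which favours a difference in that direction: the fitted change was 0.87 (SE 0.35, edgeR adjusted p = 0.037), on 10 to 17 estimated counts a library at 500 nM, and 9 of 14 alternatives did not call it (adjusted p = 0.15 with DESeq2), including fits without DMSO replicate 1 or 3 or 500 nM replicate 1 or 3 (adjusted p = 0.083 to 0.17).

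**Figure D3:**
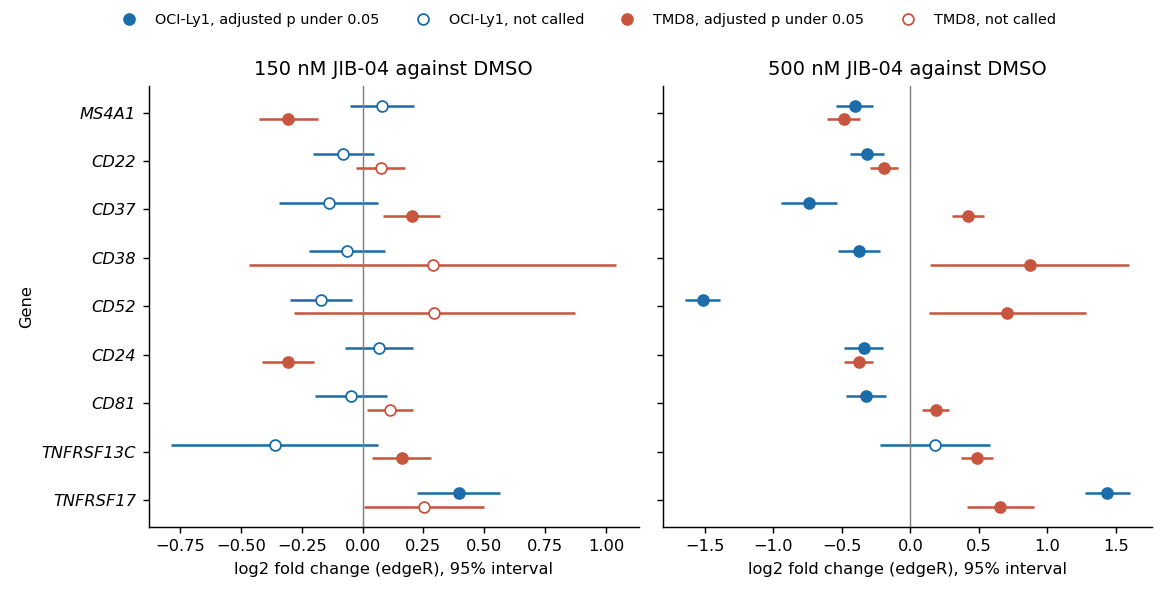
log2 fold change of each antigen against DMSO at 150 nM and at 500 nM with 95% intervals, for OCI-Ly1 and TMD8; filled points have an edgeR adjusted p under 0.05. At 500 nM, CD37 was at -0.74 in OCI-Ly1 and 0.42 in TMD8 (0.05 on log2(TPM + 1)), and TNFRSF17 at 1.44 and 0.66 (the latter 0.25 on log2(TPM + 1)).

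Among the BAFF and APRIL receptors, TNFRSF17, which encodes BCMA, was the member that rose in OCI-Ly1. It was at 46.9, 54.3 and 41.2 CPM with DMSO, 58.0, 65.7 and 62.6 CPM at 150 nM and 131, 124 and 128 CPM at 500 nM. The 3 groups did not overlap and were ordered by dose. TNFRSF17 rose by 0.39 on the log2 scale at 150 nM (SE 0.08, edgeR adjusted p = 0.02) and by 1.44 at 500 nM (2.71-fold, SE 0.08, edgeR adjusted p = 6.4e-11), a size that 4.51% of tested genes reached. The 150 nM call was lost without DMSO replicate 1 or 3 or 150 nM replicate 2 or 3 (adjusted p = 0.061 to 0.14) and on log2(TPM + 1) (adjusted p = 0.083).

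Untreated TMD8 held less TNFRSF17, with libraries at 10.03, 7.457 and 7.998 CPM with DMSO, 9.80, 10.9 and 9.57 CPM at 150 nM and 12.8, 14.1 and 13.0 CPM at 500 nM. The 150 nM libraries overlapped DMSO and the 500 nM libraries lay above both. The log2 fold change was 0.25 at 150 nM (SE 0.12, edgeR adjusted p = 0.091) and 0.66 at 500 nM (SE 0.12, edgeR adjusted p = 8.8e-05), the latter 0.25 on log2(TPM + 1) (limma adjusted p = 0.094). By TPM, TNFRSF17 was at 70.3 ± 8.19 with DMSO and 209 ± 3.74 at 500 nM in OCI-Ly1, against 7.10 ± 1.73 and 8.53 ± 0.748 in TMD8 (n = 3).

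TNFRSF13C, the BAFF receptor of mature B cells, was scarce in OCI-Ly1. Its libraries were at 3.45, 2.46 and 3.07 CPM with DMSO, 2.66, 2.19 and 2.18 CPM at 150 nM and 3.22, 2.94 and 4.08 CPM at 500 nM. Both doses overlapped DMSO, and the change at 500 nM was 0.18 with a 95% interval from -0.22 to 0.58 (edgeR adjusted p = 0.45). In TMD8 the libraries were at 37.1, 38.1 and 36.5 CPM, then 41.0, 40.5 and 43.1 CPM, then 50.4, 52.7 and 53.6 CPM. Here the 3 groups did not overlap and TNFRSF13C rose by 0.16 at 150 nM (SE 0.06, edgeR adjusted p = 0.029) and by 0.49 at 500 nM (SE 0.06, edgeR adjusted p = 8.2e-07). On log2(TPM + 1) these were 0.00 and 0.11 (limma adjusted p = 0.98 and 0.35). The 150 nM call was also lost with DESeq2 (adjusted p = 0.072), after centring (adjusted p = 0.11) and without DMSO replicate 3 or 150 nM replicate 3 (adjusted p = 0.087 and 0.063).

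Between the doses, all 9 members were called in OCI-Ly1 (7 lower and 2 higher at 500 nM; 46.2% of all genes were called, 25.1% higher and 21.1% lower) and 5 in TMD8 (2 lower and 3 higher; 28.7% of all genes, 13.7% higher and 15% lower). The OCI-Ly1 steps ran from -1.35 for CD52 to 1.04 for TNFRSF17 on the log2 scale. In TMD8 the called steps were -0.18 for MS4A1, -0.27 for CD22, 0.22 for CD37, 0.33 for TNFRSF13C and 0.41 for TNFRSF17, and those of CD24 (-0.07) and CD81 (0.07) were not called. On log2(TPM + 1) the TMD8 steps of CD37, TNFRSF13C and TNFRSF17 were 0.00, 0.11 and 0.16 and were not called, nor were those of CD22 (-0.13) and CD81 (-0.17) in OCI-Ly1. The TNFRSF13C step in OCI-Ly1 (0.54, edgeR adjusted p = 0.031) was lost with DESeq2 and without 150 nM replicate 2 or 3 or 500 nM replicate 3 (adjusted p = 0.056 to 0.15), and the TNFRSF17 step in TMD8 without 150 nM replicate 3 or 500 nM replicate 2 (0.051 and 0.068).

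The difference between the lines in the response to 500 nM was tested with all 18 libraries, as the change in OCI-Ly1 minus that in TMD8. Of the 9 members 5 were called, 1 with the higher and 4 with the lower change in OCI-Ly1, where 46.4% of all genes were called (28.2% higher, 18.1% lower). At 150 nM 4 members were called, 2 in each direction, against 23.3% of all genes (15% higher, 8.33% lower). The differences at 500 nM were -2.19 for CD52 (SE 0.27, edgeR adjusted p = 2.4e-07), -1.22 for CD38 (SE 0.32, edgeR adjusted p = 0.0028), -1.13 for CD37 (SE 0.11, edgeR adjusted p = 6.5e-09), -0.48 for CD81 (SE 0.09, edgeR adjusted p = 0.00012) and 0.81 for TNFRSF17 (SE 0.15, edgeR adjusted p = 6.3e-05). CD52 and CD38 rest on the low TMD8 counts given above. On log2(TPM + 1) the differences were -1.61 for CD52, -0.36 for CD38, -0.63 for CD37, 0.00 for CD81 and 1.31 for TNFRSF17, of which CD81 was not called, and the share of called genes with the higher change in OCI-Ly1 went from 60.9% to 89.1%. For MS4A1 the difference was 0.11 (95% interval -0.08 to 0.30), for CD22 -0.10 (-0.26 to 0.07), for CD24 0.07 (-0.12 to 0.26) and for TNFRSF13C -0.29 (-0.61 to 0.04), none called. On log2(TPM + 1) the differences for MS4A1 (0.60), CD24 (0.54) and CD22 (0.38) were called.

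**Figure D4:**
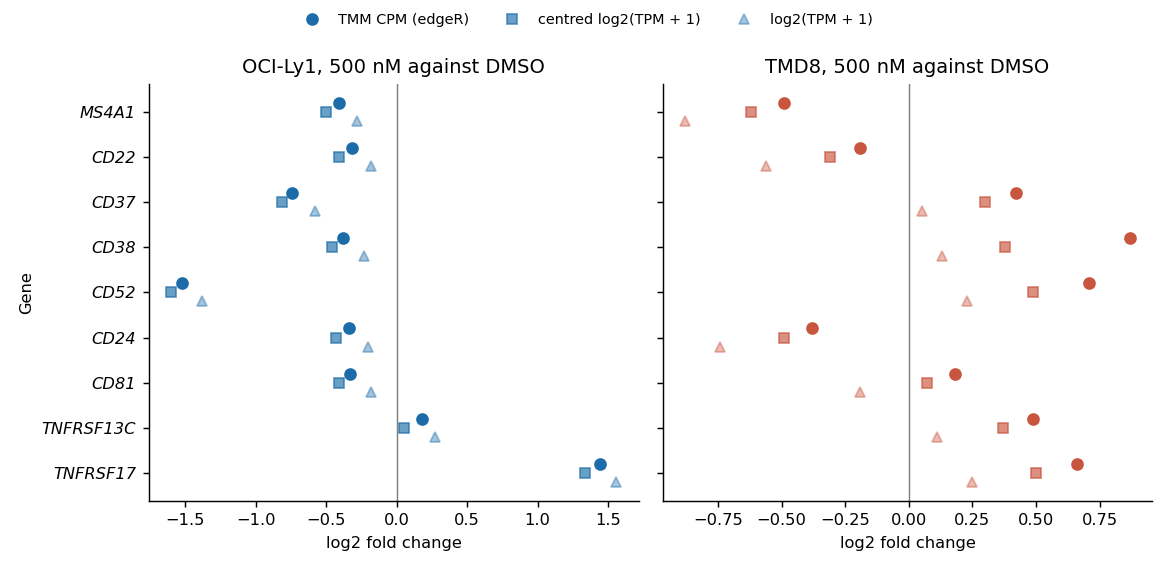
log2 fold change of each antigen at 500 nM against DMSO on 3 scales: edgeR on TMM-normalised counts, log2(TPM + 1) and log2(TPM + 1) after subtracting each library's median. The TMD8 panel shows that TPM values lie lower (CD81 at 0.18, -0.19 and 0.07; CD37 at 0.42, 0.05 and 0.30), and in OCI-Ly1 every member keeps its direction.

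Neighbours of the antigens were described by 7 gene lists. Of all tested genes at 500 nM, 27.7% were called higher and 25.9% lower in OCI-Ly1, and 29.9% and 30.7% in TMD8. These shares are the background of every list count below, and no difference from them was tested. The counts also depend on the scale: in OCI-Ly1 the share of called genes that was higher went from 51.6% to 32.3% after centring. Of the 16 tested genes of the B-cell receptor and its proximal signalling, 3 rose and 9 fell at 500 nM in OCI-Ly1, with a median log2 fold change of -0.24, and of 18 in TMD8 6 rose and 7 fell, with a median of -0.04 (0 and 11 on log2(TPM + 1)). BTK, the kinase inhibited by ibrutinib, went from 142 ± 6.48 to 89.7 ± 1.77 CPM in OCI-Ly1 (log2 fold change -0.66, edgeR adjusted p = 1.3e-08), and VAV1, an exchange factor, from 151 ± 6.2 to 99.8 ± 8.6 CPM (-0.59, edgeR adjusted p = 7.7e-07). In TMD8, PTPN6, the phosphatase SHP-1 that CD22 recruits, went from 353 ± 13.2 to 197 ± 5.79 CPM (-0.84, edgeR adjusted p = 1.5e-10). IFITM1, a membrane partner of CD81, had a log2 fold change of -1.55 (edgeR adjusted p = 6.2e-07).

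Tetraspanins other than CD37 and CD81 rose more often than they fell in OCI-Ly1, 9 against 3 of 21 tested (median 0.16; 5 against 5 after centring), and 5 rose and 4 fell of 22 in TMD8 (median 0.30). CD82 moved oppositely in the lines, by -1.58 in OCI-Ly1 (edgeR adjusted p = 1.9e-07), while TMD8 had 46.8 ± 4.45 CPM with DMSO and 91.2 ± 1.85 CPM at 500 nM (0.96, edgeR adjusted p = 6.1e-10). TSPAN11 fell by 1.81 in OCI-Ly1 and TSPAN13 by 0.61 in TMD8. In the MS4A and Siglec families, to which MS4A1 and CD22 belong, 10 of 26 listed genes in the tables were tested in OCI-Ly1, and 0 rose and 6 fell (median -0.50). SIGLEC10, the receptor of CD24, went from 36.9 ± 1.65 to 24.8 ± 1.62 CPM (-0.57, edgeR adjusted p = 3.1e-06), and SIGLEC16 changed by -0.50 (edgeR adjusted p = 0.0037). In TMD8 1 rose and 3 fell of 13 (median 0.12), among them MS4A6A, at -1.50 (edgeR adjusted p = 4.3e-08), and SIGLEC14, at 0.80 (edgeR adjusted p = 1.6e-08), and 7 were called on log2(TPM + 1).

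Genes that make and attach the GPI anchor, which CD52 and CD24 carry, rose in OCI-Ly1 in 15 of 29 cases and fell in 1 (median 0.23), while in TMD8 6 rose and 12 fell (median -0.15; 1 and 20 on log2(TPM + 1)). PIGT, a subunit of the transamidase that attaches the anchor, rose by 0.76 in OCI-Ly1 (edgeR adjusted p = 1.9e-07) and PIGQ, part of the enzyme of the opening step, by 0.68 (edgeR adjusted p = 4e-05). For TMD8 the largest called changes were those of MPPE1, which remodels the finished anchor, at 0.79 (edgeR adjusted p = 7.4e-08) and of PIGW at -0.71 (edgeR adjusted p = 5.3e-07). For the BAFF and APRIL pathway without its members here, 9 of 21 rose and 1 fell in OCI-Ly1 (median 0.15), and 7 of 20 rose and 4 fell in TMD8 (median -0.04; 0 and 14 on log2(TPM + 1)). NFKB2 rose by 0.80 (edgeR adjusted p = 9.2e-07) and RELB by 0.64 (edgeR adjusted p = 2.2e-06) in OCI-Ly1, both subunits of the noncanonical NF-kB pathway below BAFF-R. In TMD8, BIRC3, an inhibitor of that pathway, fell from 101 ± 8.08 to 44.5 ± 2.46 CPM (-1.17, edgeR adjusted p = 5.3e-10). APH1A, a subunit of the gamma-secretase that sheds BCMA, fell by 0.70 (edgeR adjusted p = 2e-08).

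Other surface antigens gave 9 higher and 8 lower of 29 in OCI-Ly1 (median -0.10) and 12 and 6 of 30 in TMD8 (median 0.09; 3 and 15 on log2(TPM + 1)). LY9 rose in TMD8 from 2.49 ± 0.53 to 20.1 ± 2.16 CPM (log2 fold change 2.99, edgeR adjusted p = 1.2e-10) and SDC1, the plasma-cell antigen CD138, from 2.29 ± 0.275 to 15.8 ± 0.601 CPM (2.78, edgeR adjusted p = 5.5e-11). In OCI-Ly1, the chemokine receptor CCR7 rose from 0.762 ± 0.232 to 5.84 ± 0.851 CPM (2.89, edgeR adjusted p = 7e-09), and CD180 fell by 1.24 (edgeR adjusted p = 2.2e-08). Of 30 B-cell and plasma-cell transcription factors, 13 rose and 11 fell in OCI-Ly1 (median 0.07) and 12 and 10 in TMD8 (median 0.04; 1 and 17 on log2(TPM + 1)). IRF4 rose in OCI-Ly1 from 230 ± 13.5 to 441 ± 17.4 CPM (0.94, edgeR adjusted p = 1.1e-10) and XBP1, which drives the secretory program of plasma cells, from 6.88 ± 0.669 to 22.5 ± 2.62 CPM (1.70, edgeR adjusted p = 1.4e-09). TNFRSF17 also rose in that line, while CD38 fell (-0.38). XBP1 rose in TMD8 by 0.70 (edgeR adjusted p = 1.4e-08), and IKZF1 fell there by 0.94 (edgeR adjusted p = 1.9e-10). The plasma-cell marker list holds TNFRSF17, XBP1, IRF4, SDC1, PRDM1, IGJ and MZB1. Its sum was at 988 to 1030 TPM with DMSO and 934 to 1010 TPM at 500 nM in OCI-Ly1. In TMD8 the sum was at 443 to 552 and 267 to 307 TPM. TNFRSF17 itself went from 70.3 to 209 TPM in OCI-Ly1. The other listed genes together were therefore lower at 500 nM there on this uncentred scale, so the list did not rise as a whole.

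**Figure D5:**
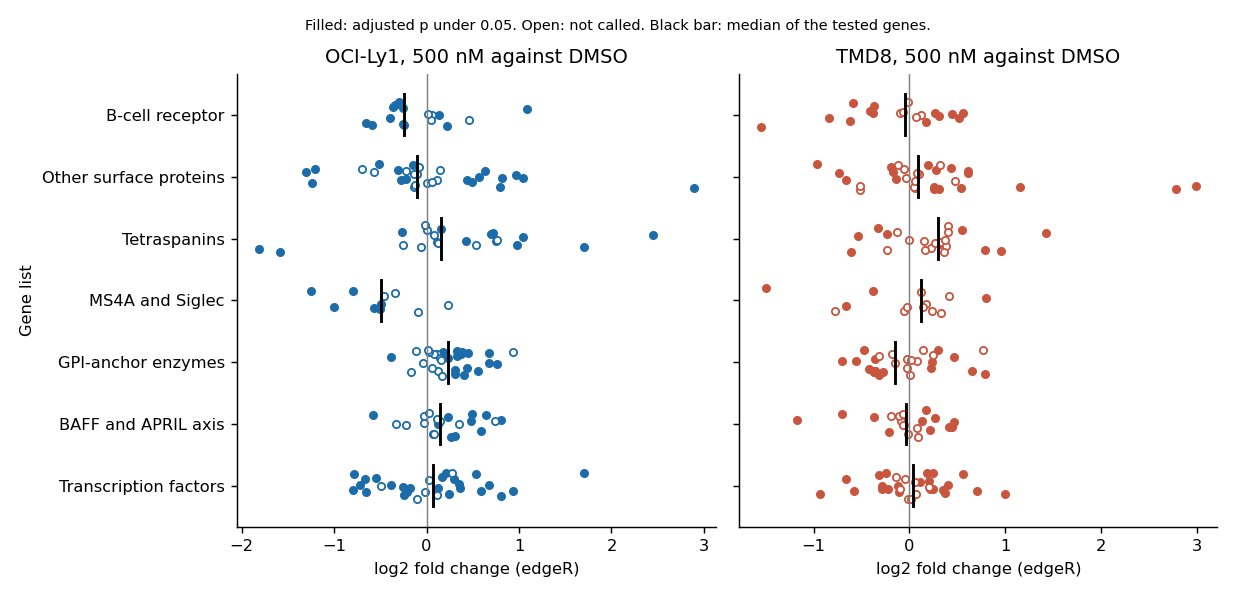
log2 fold change at 500 nM against DMSO (edgeR) of each tested gene in the 7 lists, for OCI-Ly1 and TMD8; filled points have an adjusted p under 0.05 and black bars are medians. The median of the GPI-anchor genes was 0.23 in OCI-Ly1 and -0.15 in TMD8, and that of the MS4A and Siglec genes -0.50 and 0.12.

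Dose profiles were compared over all 18 libraries among the 14474 genes tested in both lines, by the root-mean-square difference of log2 CPM after subtracting each line's DMSO mean. MS4A1 lay nearest to FAM49B (0.047), CD24 to ZRANB2 (0.047), CD81 to EHD4 (0.056) and CD22 to EDC3 (0.062). CD37 was nearest to GM2A (0.117), TNFRSF17 to SLC3A2 (0.132), TNFRSF13C to MICALL1 (0.137), CD38 to TCTA (0.162) and CD52 to STXBP6 (0.201). Each value is the smallest of all genes compared. The median distance of a member to those genes ran from 0.319 for CD22 to 0.759 for CD52. The TMD8 part of the CD38 and CD52 distances rests on few counts. Among the antigens themselves, MS4A1 and CD24 were each the other's nearest (0.061).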

How the data were processed

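RNA sequencing was done on rRNA-depleted RNA of OCI-Ly1 and TMD8, paired-end, per the labels' protocols. The authors deposited estimated counts and TPM per gene symbol, 4 tables in all. The submitters' processing notes name kallisto 0.46.0, R 4.3.1, DESeq2 1.40.2 and hg19, without roles; the transcript index and strand setting are not given in the sources used here. The estimated counts were rounded to whole numbers and tested with edgeR 4.0.16 in R 4.3.3 (quasi-likelihood test, TMM, filterByExpr with a minimum count of 10), the 9 libraries of a line together, and all 18 for comparisons of lines. Within each contrast the Benjamini-Hochberg adjustment ran over all tested genes, and an adjusted p under 0.05 made a call. SE is the absolute log2 fold change over the square root of F.

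Of the 9 members, all passed the filter in both lines. Members, gene lists and marker lists were chosen with earlier results of these data known; 1 listed gene is not reported here and was left out of its lists. From each list the text names, per line, the 2 called genes with the largest absolute change at 500 nM and 5 CPM or more as the larger group mean. The nearest gene to each member was found as described in the results. Alternatives were DESeq2 1.42.0, library size alone, no filter, a filter of 1 CPM in every group mean, limma 3.58.1 on log2 TPM with a pseudocount of 1 or 0.1, or of 1 after centring each library on its median, the replicate number as a block, the 6 libraries compared, and leaving out each library. Tested on simulated data for OCI-Ly1 at 500 nM, edgeR recovered 65.7% of genes changed by 0.5 and 86.9% of those changed by 1 on the log2 scale, with 10 false calls among 15461 genes. Only 99 tested genes were changed by 0.5 and 99 by 1 in that simulation. In the data 53.6% of genes were called, so these rates need not carry over to the real comparison. No pair of replicates had identical values or agreed within sampling noise. The low antigens in TMD8 rest on few counts, and the part of counting error in their spread was not tested.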

Additional observations from a re-analysis of the deposited data

Results flagged for a closer look

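For 9 results, the change against DMSO differed between OCI-Ly1 and TMD8 in the test of the difference itself (edgeR, all 18 libraries; OCI-Ly1 minus TMD8 on the log2 scale). At 500 nM these were CD52 (-2.19), CD38 (-1.22), CD37 (-1.13), CD81 (-0.48) and TNFRSF17 (0.81). The TMD8 side of the first 2 rests on 14 to 21 estimated counts a library for CD52 and 6 to 17 for CD38. CD38 passed the low-count filter in TMD8 only through its 500 nM libraries. In 9 of 14 alternatives the TMD8 change at 500 nM was not called for CD52, and the same held for CD38. CD37 and CD81 fell in OCI-Ly1 (-0.74 and -0.33) and were higher in TMD8 (0.42 and 0.18; 0.05 and -0.19 on log2(TPM + 1)). TNFRSF17 was higher in both (1.44 and 0.66), but its TMD8 value on log2(TPM + 1) was 0.25 and not called (limma adjusted p = 0.094).

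At 150 nM, 4 members differed between the lines, where 23.3% of all genes were called. MS4A1 differed by 0.39 (SE 0.09, edgeR adjusted p = 0.0032) and CD24 by 0.38 (SE 0.09, edgeR adjusted p = 0.0037), and both had fallen in TMD8 at that dose. CD37 differed by -0.33 (SE 0.11, edgeR adjusted p = 0.026) and TNFRSF13C by -0.52 (SE 0.17, edgeR adjusted p = 0.028). The last 2 calls were lost in 8 of 20 alternatives each, with adjusted p up to 0.51 for CD37 and 0.29 for TNFRSF13C, and those of MS4A1 and CD24 in 0 of 20.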

How the results depend on the processing

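The number of members called moved with the scale. For OCI-Ly1 at 150 nM it was 1, and 0 on log2(TPM + 1), log2(TPM + 0.1) and centred log2(TPM + 1), 0 with only the 6 libraries compared, and 0 to 1 when a library was left out. For TMD8 at 150 nM it was 4, with 7 by library size alone and 2 on each of the 3 TPM scales, and 3 to 5 without a library. For TMD8 at 500 nM it was 9, with 3 on log2(TPM + 1) and on log2(TPM + 0.1), and 7 to 8 without a library. For TMD8 at 500 against 150 nM it was 5, with 2 on both uncentred TPM scales and 3 to 4 without a library (3 without 500 nM replicate 2). For the difference between lines it was 4 at 150 nM, with 2 on both uncentred TPM scales and 2 to 4 without a library (2 without OCI-Ly1 DMSO replicate 1, OCI-Ly1 150 nM replicate 2 or TMD8 150 nM replicate 3), and 5 at 500 nM, with 3 under the stricter filter, which removes CD38 and CD52, and 5 to 6 without a library. Without a library it was 8 for OCI-Ly1 at 500 nM, 8 to 9 for OCI-Ly1 at 500 against 150 nM and 9 for the untreated lines. Apart from the filter, the cause was not tested. Among all called genes, the share that was higher went from 54.3% to 72.7% on log2(TPM + 1) for OCI-Ly1 at 500 against 150 nM, from 43.5% to 21.3% for TMD8 at 150 nM and from 47.9% to 10.4% for TMD8 at 500 against 150 nM.

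Among values called in the report or under the alternative, the direction did not hold on log2(TPM + 1) and log2(TPM + 0.1) for CD81 in TMD8 at 500 nM (-0.19 on both), for CD37 in TMD8 at 500 against 150 nM (0.00 on both), and for the difference between lines at 500 nM of CD22 (0.38 and 0.39) and CD81 (0.00 and 0.01). Values called in neither also changed sign on both scales: on log2(TPM + 1), CD22 (-0.08) and CD81 (-0.04) in TMD8 at 150 nM, CD81 in TMD8 at 500 against 150 nM (-0.15), and the difference between lines for CD22 and CD81 at 150 nM (0.03 each) and TNFRSF13C at 500 nM (0.16). Without DMSO replicate 2, CD81 in OCI-Ly1 at 150 nM was 0.02. In OCI-Ly1 at 500 nM all alternatives kept the calls of MS4A1, CD22, CD37, CD38, CD52, CD81 and TNFRSF17.

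Libraries with the same replicate number share only a number: their deviations correlated between -0.0462 and 0.146 in OCI-Ly1 and between -0.0545 and 0.141 in TMD8, over 0.1 in 2 of 9 pairs each. With the replicate number as a block, 8 members were called in TMD8 at 500 nM, since CD38 was not (log2 fold change 0.87, edgeR adjusted p = 0.052), and the number of members called was the same in the other 8 comparisons.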
